A study of Drosophila melanogaster with 6 samples.

Results

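The first genes that a Drosophila melanogaster embryo transcribes from its own genome include a small set needed when the syncytial blastoderm is divided into cells. These earliest zygotic cellularisation genes were examined in RNA recovered with the protein Isha, which the study's title describes as binding the mRNA of the insulator gene su(Hw), and in nuclear input RNA. The 8 genes were halo, Z600, nullo, bnk, Sry-alpha, slam, term and sisA, of 17612 genes in the count table. They were chosen by name with the Isha RIP over input values of the same libraries already known, halo and Z600 being among the most enriched genes. Their differences between the groups are therefore given as descriptions, without a test.

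Early fly embryos divide their nuclei rapidly in a shared cytoplasm, and membrane furrows then grow inward between the nuclei to make the first epithelium, a process called cellularisation. Most proteins it needs are loaded by the mother. A few, such as nullo, Sry-alpha, bnk and slam, must be made from new zygotic transcripts, which appear for a short time and come from short genes with few introns.

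There were 2 groups of 3 libraries each. In the Isha RIP group, nuclear extract of wild-type Oregon R embryos, collected as a mixture of ages from 0 to 24 h, was first cleared on beads with preimmune rabbit serum, and RNA was then isolated from beads with rabbit antiserum against Isha. The input group was RNA of nuclear extract from the same kind of embryos, with no antibody. Library totals ranged from 8386414 to 14342543 counts in Isha RIP and from 29344529 to 31680173 in input, so that 1 count was worth 0.0692 to 0.118 CPM in Isha RIP and 0.0318 to 0.0343 CPM in input. CPM are counts per library total, on the usual scale of this unit, after scaling with TMM factors, so every level is relative to the rest of its library. A precipitation with control serum was not analysed here, so RNA bound through Isha cannot be told apart from RNA that sticks to serum or beads. The labels do not say that libraries of a group came from separate extracts, so SDs and p-values measure only how these libraries vary, possibly for technical reasons. Transcripts of early and late embryos were both present: the maternal patterning gene nanos averaged 7.45 CPM in Isha RIP and 19.8 CPM in input, and the late muscle myosin gene Mhc averaged 2668 CPM in Isha RIP and 3760 CPM in input.

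Of the 8 genes, 6 are a single exon block of at most 1469 bases, without introns, and slam is the longest. On dm6, halo (FBgn0001174) lies on chromosome 2L from 1517533 to 1518148 on the minus strand, with 616 exon bases. Z600 (FBgn0004052) lies on 3L from 15509061 to 15509513 on the plus strand and is the shortest, with 453 exon bases. The single-exon genes nullo (FBgn0004143; X, 7049476 to 7050321, plus strand), bnk (FBgn0004389; 3R, 31193362 to 31194389, plus strand), term (FBgn0003683; 3L, 18592303 to 18593771, minus strand) and sisA (FBgn0003411; X, 11321579 to 11322357, minus strand) hold 846, 1028, 1469 and 779 exon bases. slam (FBgn0043854) lies on 2L from 6372388 to 6377284 on the plus strand, with 4117 exon bases in 3 blocks. The median exon length of the 7 counted genes was 846 bases, against 2022 bases for all coding genes tested.

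**Figure D1:**
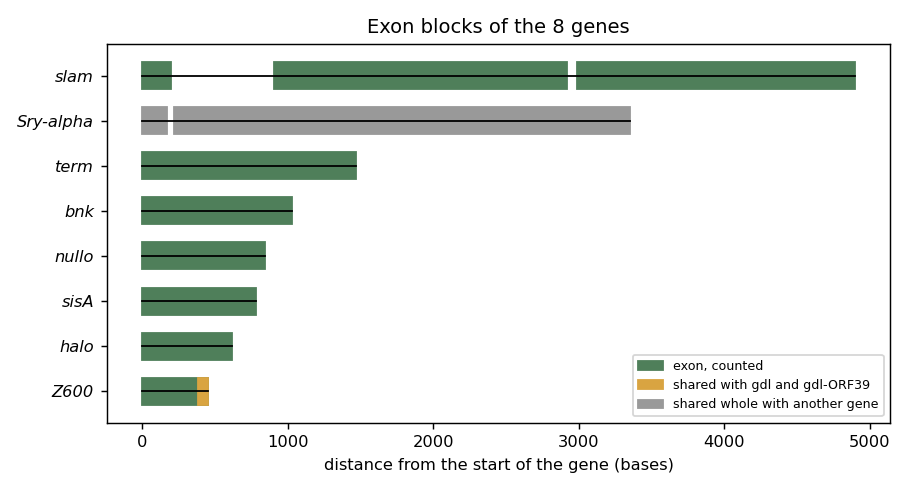
Exon blocks (boxes) and introns (lines) of the 8 genes, drawn to scale from the start of each gene in bases. Of these, 6 genes are 1 block, slam has 3, the last 69 bases of Z600 are shared with gdl and gdl-ORF39, and all 3300 exon bases of Sry-alpha are shared with a second gene.

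Sry-alpha, which organises actin at the cleavage furrow, could not be measured. The table lists 2 identifiers, FBgn0003510 and FBgn0003511, with the same span on chromosome 3R from 30039719 to 30043071 on the plus strand, where the reference annotation has Sry-alpha and Sry-beta. Their exons cover the same 3300 bases, and both had 0 counts in all 6 libraries. The same held across the table: of 427 genes whose exons lie wholly inside exons of other genes on the same strand, 0 had a count in any library. Of 132 genes whose exons lie wholly inside exons on the opposite strand, 101 had counts. Genes wholly inside another on their own strand thus carry no reads in the table, and the 0 of Sry-alpha says nothing of its level. Its neighbour Sry-delta, the third gene of that cluster and an activator of bcd, averaged 28.5 CPM ± 0.393 in Isha RIP and 31.3 CPM ± 2.65 in input (SD, n = 3).

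The 2 genes that stood far above input were halo and Z600. halo directs the transport of lipid droplets along microtubules in the blastoderm. Its level was 53.1, 47.7 and 59.5 CPM in the Isha RIP libraries, against 9.53, 6.59 and 7.75 CPM in the input libraries. These values rest on 469, 403 and 860 counts in Isha RIP and 296, 192 and 244 counts in input. Every Isha RIP library held more of it than every input library, even in raw counts, although the input libraries were deeper. This was a 6.72-fold difference, or 2.75 ± 0.16 (SE) on the log2 scale.

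Z600, also called frühstart, stops mitosis by binding cyclins. It was measured at 28.0, 32.4 and 30.7 CPM in Isha RIP and at 4.83, 4.77 and 5.56 CPM in input, from 247, 274 and 444 counts in Isha RIP and 150, 139 and 175 in input. Again the groups did not overlap in CPM or in counts, and the difference was 6.0-fold, or 2.59 ± 0.18 (SE) on the log2 scale. The last 69 of its 453 bases are shared with the same-strand genes gdl and gdl-ORF39, so its counts are taken to come from the other 384 bases. gdl itself averaged 0.643 CPM ± 0.341 in Isha RIP and 0.749 CPM ± 0.294 in input (SD, n = 3). In every library gdl-ORF39 had 0 counts. These 2 genes also share bases with each other on the same strand, so their low counts may not show their levels.

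Of the furrow genes, slam was lower in Isha RIP and bnk and nullo overlapped input. The protein of slam recruits RhoGEF2 to the furrow tip and builds the basal junction. It had 85.5, 83.8 and 70.6 CPM in Isha RIP and 119, 116 and 109 CPM in input, with no overlap. Isha RIP stood at 0.693 times input, a log2 fold change of -0.53 ± 0.084 (SE). slam was the best counted of the genes, at 709 to 1020 counts per library in Isha RIP and 3386 to 3707 in input.

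bnk encodes the protein that holds the basal actin network together until furrows have passed the nuclei. Its libraries gave 23.1, 19.6 and 22.6 CPM in Isha RIP and 21.8, 21.1 and 16.1 CPM in input. The ranges overlapped, with a log2 fold change of 0.15 ± 0.17 (SE). bnk lies within the span of mesh, a septate junction gene on the opposite strand that was lower in Isha RIP, at 369 CPM ± 13.3 against 609 CPM ± 6.09 in input (SD, n = 3; edgeR adjusted p = 2.66e-12).

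nullo, whose protein keeps actin at the furrow canals and delays their junctions, was the scarcest gene. It was found at 2.49, 0 and 2.98 CPM in Isha RIP and at 2.25, 2.23 and 3.05 CPM in input. The Isha RIP counts were 22, 0 and 43, and the input counts were 70, 65 and 96. A count of 0 in Isha RIP replicate 2 allows up to 0.355 CPM by counting error, and the mean of the other 2 Isha RIP libraries, 2.73 CPM, would have given 23.1 counts there. Such a library at 0 beside at least 20 counts in both others occurred in 8 of the 11764 tested genes, 6 of them with the 0 in replicate 2. All 8 were among the 1837 tested genes with a mean input level of 1 to 5 CPM, where nullo lies. For nullo the log2 fold change was -0.42 ± 0.70 (SE) over all libraries, and it turned to 0.13 without Isha RIP replicate 2 and was -1.37 with limma-voom. CG12541, whose span holds nullo on the opposite strand, averaged 8.11 CPM ± 1.23 in Isha RIP and 8.37 CPM ± 0.915 in input.

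sisA and term are active at the same stage and lie outside the furrow itself. sisA, a bZIP protein by which the embryo counts its X chromosomes, had 10.8, 9.34 and 9.48 CPM in Isha RIP and 10.5, 12.9 and 10.1 CPM in input. The groups overlapped, with a log2 fold change of -0.18 ± 0.22 (SE). term was measured at 8.84, 8.63 and 7.89 CPM in Isha RIP and at 16.2, 16.1 and 16.0 CPM in input. It did not overlap between the groups, and Isha RIP stood at 0.523 times input, -0.94 ± 0.20 (SE) on the log2 scale.

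**Figure D2:**
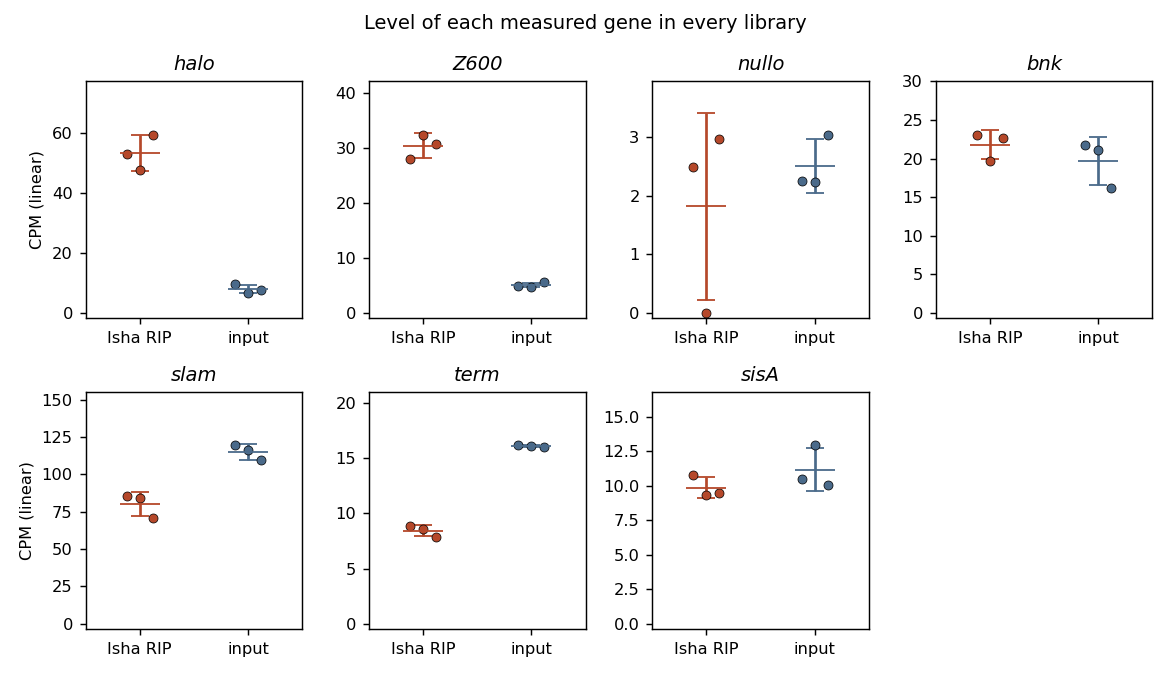
Level in CPM (linear axes from 0, 1 panel per gene) in each of 3 Isha RIP and 3 input libraries, with bars for the mean ± SD. The Isha RIP points of halo (47.7 to 59.5 CPM) and Z600 (28.0 to 32.4 CPM) lie far above input, those of slam and term lie below input, and 1 Isha RIP library has no count of nullo.

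The genes thus did not move as a block. All Isha RIP libraries lay above all input libraries for 2 of the 7 counted genes, where 30.0% of the 11764 tested genes did so, and below for 2, where 34.0% did so. In the edgeR fit over all genes, 27.0% of tested genes passed an adjusted p of 0.05 as higher and 30.4% as lower. Because the 7 genes were picked with these values known, no calls are given for them. Their numbers above and below input are given beside the background only. The log2 fold changes ran from -0.94 to 2.75 with a median of -0.18, against a median of -0.05 for all tested genes, of which the middle 90% lay between -1.66 and 1.44. halo ranked 55 and Z600 ranked 74 of all tested genes, while bnk ranked 4820, sisA 6562, nullo 7772, slam 8274 and term 9764.

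**Figure D3:**
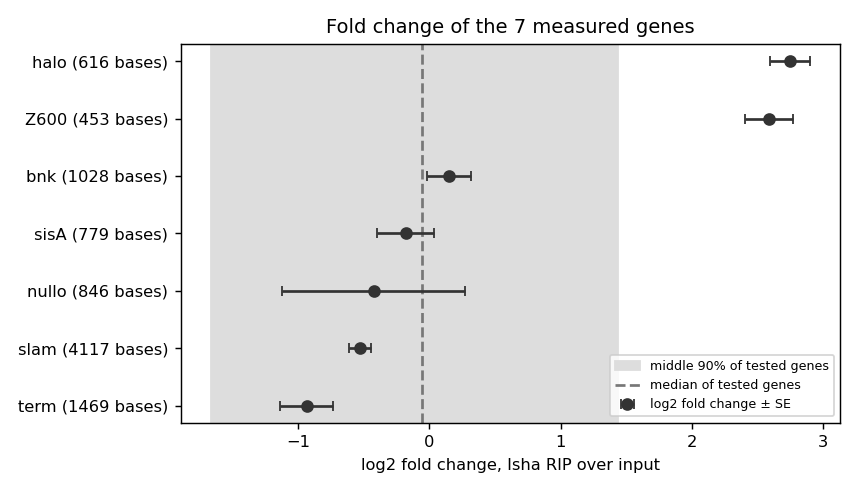
Log2 fold change of Isha RIP over input with its standard error (horizontal axis) for the 7 counted genes, with exon length in brackets. The shaded band is the middle 90% of tested genes and the dashed line their median; halo at 2.75 and Z600 at 2.59 lie beyond the band, and the other 5 lie inside it.

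Summed over the 7 genes, the level in Isha RIP was 1.16 times that in input, while its make-up differed more. The sum was 206 CPM ± 5.43 in Isha RIP and 177 CPM ± 8.58 in input (SD, n = 3). halo and Z600 together held 40.8% ± 3.13 of it in Isha RIP and 7.34% ± 0.893 in input. slam held 38.9% ± 3.72 in Isha RIP and 64.8% ± 0.271 in input. For levels within 1 group of such bulk RNA, fewer cells at the stage that uses a gene and less RNA per cell cannot be told apart.

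Per exon length the order of the genes also differed. In Isha RIP, halo came first at 86.8 CPM per kilobase ± 9.65, followed by Z600 at 67.1 ± 4.93 (SD, n = 3). Over the full exon length the libraries of these neighbours did not overlap, but over the 384 unshared bases Z600 stood at 72.9, 84.4 and 80.0 CPM per kilobase and overlapped halo, at 86.3, 77.4 and 96.6. Next came bnk at 21.2 ± 1.84 and slam at 19.4 ± 1.99 CPM per kilobase, which overlapped. Below them stood sisA at 12.7 ± 1.00, term at 5.76 ± 0.339 and nullo at 2.16 ± 1.89, each apart from the one above. In input, slam came first at 27.9 CPM per kilobase ± 1.25, clear of bnk at 19.1 ± 2.99. From bnk downward, sisA at 14.3 ± 1.99, halo at 12.9 ± 2.41, Z600 at 11.2 ± 0.967 and term at 11.0 ± 0.0564 each overlapped the next, and only nullo at 2.97 ± 0.550 stood apart. Counted over its unshared bases, Z600 averaged 79.1 CPM per kilobase in Isha RIP and 13.2 in input, next to halo and overlapping it in both groups.

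**Figure D4:**
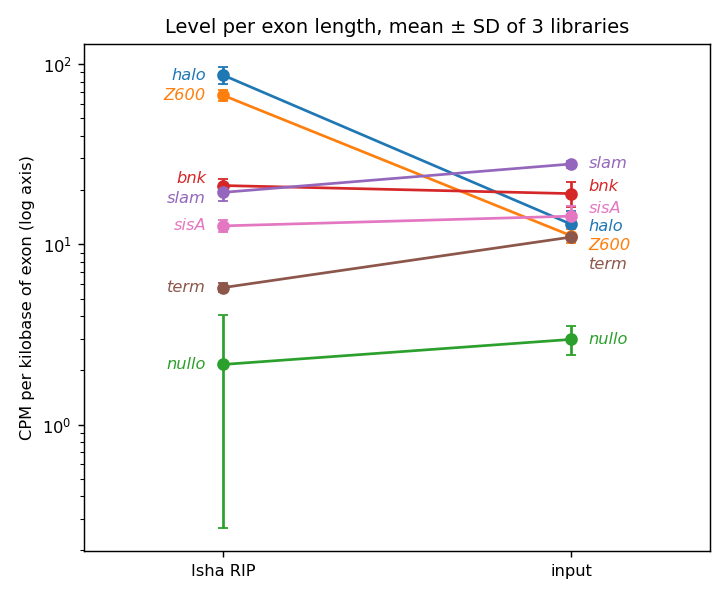
CPM per kilobase of exon (log axis), mean ± SD of 3 libraries, for each gene in Isha RIP (left) and input (right). halo and Z600 share the middle of the order in input, at 12.9 and 11.2, and lead it in Isha RIP, at 86.8 and 67.1.

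Agreement between replicates varied from gene to gene. The coefficient of variation between libraries was 5.89% to 11.1% in Isha RIP for the genes other than nullo, and 87.6% for nullo, which has the library at 0. In input it was 0.514% for term and 4.49% to 18.6% for the rest. Among tested genes of similar level, these values ranked from percentile 5.42 (term) to 92.9 (nullo) in Isha RIP. In input they ranked from percentile 0.103 (term) to 80.8 (bnk). The value of term in input, from 503, 470 and 505 counts, is thus unusually small and should not be read as precision. No library ran high or low for all genes: relative to the group mean, Isha RIP replicate 1 was above for 5 of 7 genes and input replicate 3 below for 5 of 7, and the other libraries were above for 3 or 4 of the 7.

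Short single-exon genes as a class were more often lower than higher in Isha RIP. Of 1235 tested coding genes with 1 exon block, 17.0% were called higher and 35.6% lower, with a median log2 fold change of -0.33. Those of up to 1500 bases (796 genes) had a median of -0.38. Coding genes with 4 or more exon blocks had a median of 0.02, with 33.9% higher and 29.3% lower. Among the single-exon genes halo ranked 6 and Z600 ranked 10. Apart from the members, 6 single-exon genes were called higher by at least 4-fold with a mean of at least 10 CPM in Isha RIP. That filter looks at the higher group alone. With halo and Z600, picked with these values known, these were 8 of the 1235 single-exon coding genes, beside 46 of all 11764 tested genes. The 6 were CG15480, CG32829, the apoptosis activator rpr, CRIF, the small GTPase gene Rac2 and CG6770, all named here after their values were seen.

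The genes whose profiles over the 6 libraries came closest to each member were looked up by the distance between centred log2 CPM values. For halo the nearest was CG15480, a single-exon gene of 656 bases on 2L, at 155 CPM ± 4.62 in Isha RIP and 24.0 CPM ± 1.08 in input (SD, n = 3), followed by lncRNA:CR45938. For Z600 the nearest were Muc96D, a mucin-like gene, at 365 CPM ± 25.9 in Isha RIP and 64.7 CPM ± 2.03 in input, and Paip2, a regulator of poly(A)-binding protein. halo and Z600 were 0.559 apart from each other on this scale, and 3.01 to 4.52 from bnk, slam, term and sisA. Distances among those 4 were 0.504 to 1.38. The nearest to slam were CG8036 and CG13016, to term ATPsynF and Gel, to bnk Uqcc1 and Blos2, and to sisA ClC-a and Ubi-p5E, at distances of 0.0596 to 0.164. For nullo the nearest was Mpcp1, at a distance of 1.59. The search left out candidates whose level averaged below 5 CPM. nullo itself lay under that limit, at 1.82 CPM in Isha RIP and 2.51 CPM in input. Whether scarcer genes come closer to nullo was not tested.

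Neighbouring genes differed from the members in some places and not in others. CG7841 and MsrA, on either side of Z600 at gaps of 808 and 1538 bases, were called higher, by 1.82-fold and 1.35-fold (edgeR adjusted p = 3.63e-06 and 0.000976), beside the 6.0-fold of Z600. CG7271, a single-exon gene 2137 bases from term, was lower with a log2 fold change of -0.93 (adjusted p = 0.00226), next to -0.94 for term. CG14427, the single-exon neighbour of nullo at 7706 bases, averaged 7.91 CPM ± 3.39 in Isha RIP and 8.93 CPM ± 2.33 in input. l(1)10Bb, 1936 bases from sisA, was 2.12-fold higher (adjusted p = 5.46e-06), while sisA itself was at 0.883-fold. The genes on either side of halo were barely counted: CG18132 had 0 counts in all Isha RIP libraries and Or22a had 1, 0 and 9.

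Other genes of the early embryo were next compared from 4 lists, on counting of X chromosomes, cell division and shape, dorsoventral pattern and segmentation. Most are zygotic, but da, gro, her and emc in the X-counting list are supplied by the mother. Of 57 tested, 21 were called higher and 10 lower in Isha RIP (edgeR, adjusted p under 0.05), which is 36.8% and 17.5%, beside 27.0% and 30.4% of all tested genes. The 21 include emc, and the 10 include da and gro. The median log2 fold change was 0.17 and the highest was 1.39. Of the 21, 4 were at least 2-fold higher. Of those with a single exon, 5 of 14 were called higher and 2 lower, against 16 of 43 higher and 8 lower among those with several exons.

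The genes that act with sisA in counting X chromosomes went both ways, with 3 of 9 higher, 3 lower and 3 that did not pass, or 33.3% each. Of all tested genes, 27.0% were higher and 30.4% lower, near these shares. emc, a helix-loop-helix antagonist, rose to 330 CPM ± 22.7 in Isha RIP against 154 CPM ± 7.09 in input (SD, n = 3; edgeR adjusted p = 3.33e-13). Sxl, the switch gene that sisA activates, rose by 0.63 on the log2 scale. sc, the other early X-linked counting element with a single exon, rose to 9.32 CPM ± 2.83 against 4.83 CPM ± 0.227 (adjusted p = 0.00578). The activator da fell by 0.55 on the log2 scale, the autosomal repressor dpn fell by 0.95 and the corepressor gro fell by 0.23. The counting elements run and upd1 had log2 fold changes of -0.24 and 0.28 and did not pass.

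A list of zygotic genes of cell division and cell shape also holds the Elba genes, opa, wntD and esg, which have other roles. Of its 15 genes, 4 rose, 3 fell and 8 did not pass. Toll-6, a receptor that orients germband cells, rose by 0.49 on the log2 scale, trbl, which restrains mitosis in the mesoderm, by 0.33 and the pair-rule gene opa by 0.31. The fallen genes were Elba2, at 9.10 CPM ± 1.36 in Isha RIP against 22.8 CPM ± 1.65 in input (edgeR adjusted p = 1.94e-06), 18w at a log2 fold change of -0.32 and T48 at -0.66. Elba2 belongs to a complex that binds an early embryonic boundary element, and its partners Elba1 and Elba3 had log2 fold changes of 0.16 and -0.68 without passing. dunk, a zygotic regulator of cortical myosin during cellularisation, was at 19.1 CPM ± 0.569 in Isha RIP and 19.6 CPM ± 1.37 in input.

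Of 18 dorsoventral genes 9 rose and 2 fell, or 50.0% and 11.1% beside 27.0% and 30.4% of all tested genes, with a median log2 fold change of 0.28. The mesoderm gene twi rose to 52.9 CPM ± 1.69 against 28.1 CPM ± 0.297 in input, ush rose by 0.46 on the log2 scale and the midline gene sim by 1.22, whereas Doc3 fell by 0.92 and vnd by 0.44. Exons of twi and ush share bases with another gene on their strand. Of 15 segmentation genes 5 rose and 2 fell, or 33.3% and 13.3%, the rises being near the share of all genes. odd rose to 111 CPM ± 9.74 against 42.4 CPM ± 1.72, slp2 by 1.21 on the log2 scale and ftz by 0.85, while the gap gene Kr fell by 0.34 and ems by 0.24.

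The partners of these genes that the mother supplies were also measured. Of 33 cellularisation genes with maternal supply, 17 rose and 5 fell, or 51.5% and 15.2% beside 27.0% and 30.4% of all tested genes, with a median log2 fold change of 0.33. Only 1 of the 33 has a single exon, and their median input level was 145 CPM. Among coding genes with 4 or more exon blocks, 33.9% were higher and 29.3% lower. Whether exon number or level accounts for the difference was not tested. Rab11, which delivers membrane to the furrow, rose to 339 CPM ± 16.7 against 128 CPM ± 5.24 in input (SD, n = 3; edgeR adjusted p = 1.88e-15). The myosin kinase Drak rose by 1.41 and the GTPase gene Rho1 by 1.23 on the log2 scale. RhoGEF2, which slam recruits, rose by 0.56, while Patj, a partner in the furrow, was at 0.14 and did not pass. The falls were arm, the fly beta-catenin, to 487 CPM ± 27.5 against 953 CPM ± 27.4, cher and scra, at log2 fold changes of -0.56 and -0.59, and Septin1 and pnut, at -0.39 and -0.25, both named after their values were seen. The number of falls was 8 without Isha RIP replicate 3.

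The lipid droplet and cell cycle genes linked to halo and Z600 went both ways. Of 8 droplet and motor genes 5 rose and 2 fell, or 62.5% and 25.0% beside 27.0% and 30.4% of all tested genes. No gene of this list has a single exon, and coding genes with 4 or more exon blocks were higher in 33.9% of cases. Lsd-2, a perilipin on the droplets, rose by 1.33 on the log2 scale (edgeR adjusted p = 4.86e-15), klar rose by 0.36 and BicD by 0.48. The dynein heavy chain Dhc64C fell by 1.02 and DCTN1-p150 fell by 0.46, while the kinesin heavy chain Khc was at 0.11 and did not pass. Exons of klar and Dhc64C share bases with another gene on their strand. Of 11 division cycle genes 3 rose and 4 fell, or 27.3% and 36.4%, near the 27.0% and 30.4% of all tested genes. The cyclins CycA and CycB3 and the checkpoint kinase grp rose by 0.75, 0.84 and 0.46 on the log2 scale. Exons of grp share bases with another gene on its strand. CycB fell by 0.75, stg, the phosphatase that drives mitosis, fell by 0.86 and the checkpoint kinase mei-41 fell by 1.07, while Cdk1 was at -0.01.

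The other 3 lists hold activators of the zygotic genome, maternal RNAs and genes of late differentiation. Both groups came from the same mixture of ages, so these fold changes do not measure the age of the sample. zld, the main activator of the early zygotic genome, rose to 587 CPM ± 25.4 against 469 CPM ± 4.74 in input, and Clamp rose by 0.22 on the log2 scale (edgeR adjusted p = 0.0158), while Trl, which shares exon bases with other genes on its strand, was at 0.18 and did not pass. Of 11 maternal RNAs that are cleared early or kept in the germ plasm, 8 did not pass and 3 were lower. The 3 were nanos, smg and png, at log2 fold changes of -1.38, -0.32 and -1.49. They make 27.3% lower, near the 30.4% of all tested genes, with 0 higher beside 27.0%. The list's median input level was 8.65 CPM. Of 12 genes of late differentiation 8 rose and 3 fell, or 66.7% and 25.0% beside 27.0% and 30.4% of all tested genes. No gene of this list has a single exon, and its median input level was 207.5 CPM. Among the 12 were the synaptic gene nSyb at a log2 fold change of 1.21 and Mhc at -0.49.

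**Figure D5:**
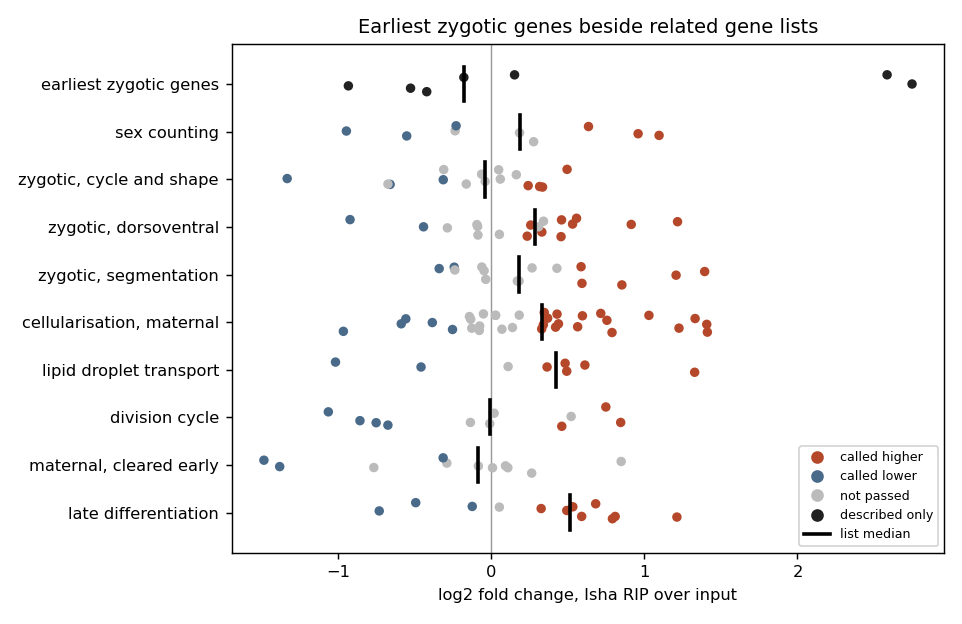
Log2 fold change of Isha RIP over input (horizontal axis) for the 7 counted genes (black) and for genes of 9 related lists (the 3 zygotic activators are not drawn), coloured by the edgeR call, with a vertical bar at each list's median. halo and Z600 are at 2.75 and 2.59, and the highest gene drawn from these lists is at 1.41. The members were chosen with these values known, so this gap is not a result.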

How the data were processed

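RNA of 3 Isha RIP and 3 input libraries was compared. The authors deposited 1 table of raw read counts per gene, beside each gene's exons and their length. Per the submitters' processing notes, the build was dm6 and the tools included Subread 2.0.0 with featureCounts, HISAT2 2.2.1, cutadapt 2.9 and Picard 2.22.2. The same notes list DESeq2 1.32.0 under R 4.1.0. The annotation version, strand setting and duplicate handling were not given in the sources used here. Symbols came from RefSeq genes of the same assembly, by coordinates for 17170 genes and by a listed synonym for 16, and the other 426 kept their identifiers. The list symbol h found no match.

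Genes were filtered with filterByExpr (minimum count 10), leaving 11764, scaled with TMM and tested with edgeR 4.0.16 in R 4.3.3 (quasi-likelihood F-test, group only, 2-sided, Benjamini-Hochberg over all tested genes, calls at 0.05). The standard error was taken as the absolute log2 fold change divided by the root of the F statistic. Alternatives used DESeq2 1.42.0, limma 3.58.1, other scaling and filters, thinning, a replicate block, removal of a length trend and each library left out. A promoter motif search was not run.

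Named genes were the members, genes overlapping or next to them, the 2 nearest profiles per member (mean level 5 CPM or more) and in each list up to 3 called genes in each direction by smallest adjusted p plus genes tied to a member by role. Neighbours, and genes said to be so, were added after the values were seen. The members, lists and tests were chosen with earlier results of these data known. All 6 replicate pairs differed by more than sampling of reads gives (chi-square per degree of freedom 5.78 to 14.3), so each library counts once. Floors and zero limits cover counting error only.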

Additional observations from a re-analysis of the deposited data

How the results depend on the processing

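Under all 15 alternatives the log2 fold change of halo stayed between 2.63 and 2.9 and that of Z600 between 2.52 and 2.66, and slam stayed below 0 at -0.64 to -0.45, as did term at -0.98 to -0.68. The value of bnk ranged from 0.03 to 0.36. The median of the 7 genes is the value of the gene in the middle, which was sisA at -0.18 in the main fit. Thinned to equal depth, sisA turned to 0.061 and was again the median. Without Isha RIP replicate 2, nullo turned to 0.13 and was itself the median. Over all libraries left out in turn, the median ran from -0.25 to 0.13 and nullo from -1.004 to 0.13, and nullo was at -0.86 with a replicate block and lowest at -1.37 with limma-voom. nullo was left out by the strict count filter, which leaves the median to 6 genes. The cause of these changes was not tested. The 21 rises and 10 falls in the 4 early lists became 19 to 22 and 8 to 11, and the 17 rises of cellularisation genes with maternal supply stayed at 17 to 18. Their 5 falls ranged from 5 to 8 when 1 library was left out. With a replicate block, 3065 genes were called higher and 3520 lower, against 3176 and 3573 without it; libraries with the same number did not deviate together (correlations of -0.05 to -0.01), so the numbers were not read as pairs. By counting error alone, 3 counts correspond to 0.208 to 0.355 CPM in Isha RIP and to 0.0953 to 0.103 CPM in input.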
